A study of Mus musculus with 34 samples.

Results

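The genes described here are the aminoacyl-tRNA synthetases: 20 genes of cytosolic enzymes and 16 genes of mitochondrial enzymes, whose symbols end in 2. They were chosen by symbol alone, with no use of measured values. All 36 were found among the 55487 gene IDs of each deposited table, with Mars under its newer symbol Mars1, and all 36 passed the filter on low values in both tables. Aminoacyl-tRNA synthetases join each amino acid to its tRNA and so supply translation. The mitochondrial enzymes are encoded in the nucleus and serve the ribosomes inside mitochondria. Gars (glycine) and Kars (lysine) each serve both compartments from one gene, Eprs joins both glutamate and proline, and Farsa and Farsb are the subunits of one phenylalanine enzyme. Many cytosolic synthetase genes are known targets of the transcription factor ATF4 in the integrated stress response, which stress in the endoplasmic reticulum (ER) can switch on in hepatocytes.

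Messenger RNA was sequenced from livers of male mice of 3 months. The first table holds 6 libraries of wild-type (WT) mice that received PBS as vehicle, 6 of WT mice 2 hours after TNFa, an inflammatory cytokine, 5 of PiZ mice given PBS, and 5 of mice labelled PiZ-p50-KO given PBS, called PiZ p50KO here. PiZ mice carry the human Z variant of alpha-1 antitrypsin, a secreted protein that polymerizes in the ER of hepatocytes, and p50 is the NF-kB subunit encoded by Nfkb1. The second table, labelled as another batch, holds WT mice given DMSO (6 libraries) and WT mice 24 hours after tunicamycin (6 libraries), which blocks N-linked glycosylation and causes ER stress. All injections were intraperitoneal. The labels give no promoter for the transgene, no cell type for the knockout and no doses. They do not say whether each library is a separate mouse, so p-values measure the spread between libraries. No library of one table was compared with a library of the other.

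Depth was 35.5 to 54.0 M reads in the first table, with one exception, and 34.3 to 47.8 M reads in the second. The library labelled WT PBS 2 stood apart, with 10.2 M reads and 72.2% of them on protein-coding genes, against at least 96.5% in every other library. It was left out of the fits below and its values are given apart. Albumin (Alb) marked all other libraries as liver, at 14.09 to 16.49 log2 CPM, and 0 of 7 lymphocyte markers passed the filter in either table. Genes of any kind above 1 CPM numbered 32360 in WT PBS 2, and 11683 to 12045 in the rest of its group. In WT PBS 2, 13 of the 16 mitochondrial members lay above the range of the other WT PBS libraries and 2 below it. Of the 20 cytosolic members 11 lay above and 5 below. The share of all genes outside their range is not given here, so these counts cannot show a feature of the synthetases. Pars2 was 4.13 log2 CPM in WT PBS 2 against 0.21 to 1.14 elsewhere in WT PBS, and Aars was 5.00 against 7.51 to 7.64. The mean of the cytosolic members exceeded that of the mitochondrial ones by 0.28 in WT PBS 2, and by 1.36 to 1.82 in the other WT PBS libraries.

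Levels were compared between genes only per length, as log2 CPM per kilobase of annotated exonic sequence. In WT PBS livers Aars had the highest mean (4.37, alanine), followed by Tars (4.25, threonine), Lars2 (4.06, mitochondrial leucine), Nars (3.99, asparagine), Mars and Dars (3.91 each, methionine and aspartate). Aars, Tars and Lars2 overlapped in their ranges of 4.29 to 4.42, 3.23 to 4.83 and 3.25 to 4.84. The lowest were Wars2 (-0.50), Pars2 (-0.77) and Mars2 (-2.51). Fars2 at rank 15 was the next mitochondrial enzyme after Lars2, so 13 of the 14 highest genes were cytosolic. The fewest reads behind any value outside WT PBS 2 were 32 for Pars2 and 50 for Mars2.

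Several members share exonic bases with a neighbour, and whether the counting used strand is not given in the sources used here. Iars2 shares 22.9% of its exonic length with Rab3gap2 on the opposite strand, and Aars shares 14.3% with Exosc6 on the same strand. Hars and Hars2 lie head to head and share 195 exonic bases. Mars shares 68 exonic bases with Ddit3, the stress gene that encodes CHOP, on the opposite strand. Iars shares 7.15% of its stretches of 50 bases with the transcript of another gene, Gm4849. Values of these genes may include reads of the partner, and their part in the results was not tested.

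ATF4 binds response elements whose core is often written TGATGNAA, and promoters that hold these letters are shown because ATF4 is a known regulator of many cytosolic synthetase genes. The motif was chosen with the expression results known, and binding was not measured. RefSeq promoters (GRCm38.p6, 250 bases before to 50 after the start) matched 27 members. Cars, Hars, Lars, Nars, Rars, Vars, Wars, Hars2 and Pars2 were not matched. Wars, Vars, Nars, Lars and Rars rose most after tunicamycin among cytosolic members, so the cytosolic share below leaves out those leading genes. Lars, Nars, Rars and Wars were also among the leading members in PiZ. The letters TGATGNAA, searched on both strands, were found in 5 of 13 cytosolic members with an entry (38.5%) and in 0 of 14 mitochondrial ones, against 3.97% of all 32851 promoters in the table. Of 16 listed integrated stress response genes with an entry, 6 (37.5%) held them. A match is a description of letters and not a binding site. The 5 promoters with a match are given here 5' to 3' on the gene's strand, with each match in capitals, reverse-complemented where it lies on the opposite strand. Counting the start base as 0, the first base of the match lies at position -30 in Gars, 7 in Iars, -112 and 9 in Aars, -15 in Tars and 3 in Yars.
Gars, chr6:55037751-55038050, plus strand: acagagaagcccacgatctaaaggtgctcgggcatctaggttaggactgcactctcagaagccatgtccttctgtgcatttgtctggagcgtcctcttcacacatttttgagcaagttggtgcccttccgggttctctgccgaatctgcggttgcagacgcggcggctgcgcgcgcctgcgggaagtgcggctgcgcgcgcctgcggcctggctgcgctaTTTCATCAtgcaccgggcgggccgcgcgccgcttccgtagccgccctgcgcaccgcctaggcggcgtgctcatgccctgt
Iars, chr13:49681880-49682179, plus strand: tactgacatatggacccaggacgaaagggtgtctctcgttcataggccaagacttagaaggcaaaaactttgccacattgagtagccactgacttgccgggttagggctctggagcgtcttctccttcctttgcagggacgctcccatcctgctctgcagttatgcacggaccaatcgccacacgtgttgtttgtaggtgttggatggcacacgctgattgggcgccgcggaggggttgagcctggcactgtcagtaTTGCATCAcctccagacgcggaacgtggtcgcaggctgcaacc
Aars, chr8:111033592-111033891, plus strand: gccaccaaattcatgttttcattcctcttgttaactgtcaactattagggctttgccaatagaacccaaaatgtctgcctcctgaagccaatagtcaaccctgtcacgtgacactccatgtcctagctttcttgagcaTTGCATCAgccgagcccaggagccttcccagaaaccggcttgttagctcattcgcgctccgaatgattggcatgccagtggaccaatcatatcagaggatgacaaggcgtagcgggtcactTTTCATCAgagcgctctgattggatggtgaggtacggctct
Tars, chr15:11399609-11399908, minus strand: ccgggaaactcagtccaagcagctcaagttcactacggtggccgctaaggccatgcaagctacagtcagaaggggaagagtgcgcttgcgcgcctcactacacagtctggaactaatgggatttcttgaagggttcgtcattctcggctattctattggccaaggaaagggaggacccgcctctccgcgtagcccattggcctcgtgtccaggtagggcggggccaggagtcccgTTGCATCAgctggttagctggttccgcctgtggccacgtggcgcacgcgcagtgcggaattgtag
Yars, chr4:129189653-129189952, plus strand: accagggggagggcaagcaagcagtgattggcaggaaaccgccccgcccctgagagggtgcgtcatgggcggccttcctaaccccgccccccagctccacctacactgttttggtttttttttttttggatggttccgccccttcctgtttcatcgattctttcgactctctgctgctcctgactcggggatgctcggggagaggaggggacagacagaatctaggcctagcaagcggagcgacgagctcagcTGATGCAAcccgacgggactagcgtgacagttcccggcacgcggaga

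On the deposited scale, most cytosolic synthetases were higher in PiZ than in WT livers, and the mitochondrial ones as a class were not. Of 20 cytosolic members 17 rose and 0 fell, with a median log2 fold change of 0.57, while 2 of 16 mitochondrial members rose and 1 fell, with a median of 0.02 (limma, adjusted p under 0.05). Many other genes also rose: 45.6% of all genes tested were called higher and 6.19% lower, with a median of 0.40. Shifting libraries to the same median moved that median to -0.09. On that scale 5 cytosolic members were higher and 2 lower (median 0.08), and 0 mitochondrial members were higher and 8 lower (median -0.47), against 17.4% and 22.5% of all genes. The difference between the classes is the same on both scales. With WT PBS 2 in the fit, 12 cytosolic members were higher, and 0 mitochondrial members passed in either direction. Fewer genes of any kind passed in that fit, 2037 higher and 299 lower of 13468 tested.

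Gars, the glycine enzyme, changed most. Its log2 CPM in WT livers was 5.34, 5.40, 5.23, 5.23 and 5.31 (PBS libraries 1, 3, 4, 5 and 6). In PiZ it was 6.50, 6.71, 6.85, 6.40 and 6.96 (libraries 1 to 5), so the groups did not overlap. Its log2 fold change was 1.38 ± 0.14 (SE, n = 5 and 5, limma adjusted p = 2.51e-07), a 2.60-fold rise, and 0.89 on the same-median scale (adjusted p = 8.83e-06). Gars lies at chr6:55038007-55079500 on the plus strand (GRCm38, GENCODE M21), with 3119 exonic bases.

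Lars, the leucine enzyme of the multisynthetase complex, stood at 3.93, 4.07, 4.07, 4.22 and 4.29 in WT PBS and at 5.26, 5.24, 5.46, 4.95 and 5.31 in PiZ, again without overlap. It rose by 1.12 ± 0.13 (limma adjusted p = 8.10e-07). Nars, the asparagine enzyme, stood at 6.09, 5.94, 6.29, 6.02 and 6.21 in WT PBS and at 7.07, 7.10, 7.32, 6.84 and 7.10 in PiZ. It rose by 0.98 ± 0.12 (limma adjusted p = 1.71e-06), also without overlap. Rars, the arginine enzyme, stood at 5.16, 4.64, 4.96, 4.60 and 4.67 against 5.56, 5.89, 6.05, 5.82 and 5.53. It rose by 0.97 ± 0.17 (limma adjusted p = 7.32e-05), but by 0.48 with adjusted p = 0.0533 on the same-median scale. Wars, the tryptophan enzyme and an interferon-inducible gene, stood at 3.62, 3.81, 3.16, 3.61 and 3.53 against 4.46, 4.88, 4.55, 3.89 and 4.72, with PiZ library 4 closest to WT. It rose by 0.96 ± 0.23 (limma adjusted p = 0.00191). Gars, Lars, Nars, Sars and Wars were the members called higher on both scales.

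The 3 cytosolic members that did not pass were Dars (-0.08), Mars (0.06) and Tars (0.28). Dars and Mars were called lower on the same-median scale, at -0.57 and -0.43. Members inside and outside the multisynthetase complex, a large particle that holds several of the enzymes, were counted apart: 6 of 8 rose inside it (median 0.53) and 11 of 12 outside it (median 0.57). With libraries at the same median, 1 was higher and 2 lower inside it, and 4 were higher and 0 lower outside it. The difference between these groups was not tested. By catalytic fold, 8 of 9 class I enzymes rose (median 0.66) and 8 of 10 class II enzymes (median 0.47). These counts by fold leave out Eprs, which holds both.

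Among mitochondrial members Rars2 (0.46 ± 0.17) and Iars2 (0.30 ± 0.12) rose and Nars2 fell by 0.36 (limma adjusted p = 0.0270, 0.0431 and 0.0077). Nars2 stood at 4.11, 4.19, 4.28, 4.31 and 4.57 in WT PBS and at 3.92, 3.88, 4.04, 4.05 and 3.81 in PiZ, with no overlap. Rars2 stood at 2.58, 2.71, 2.57, 2.21 and 2.25 against 2.70, 2.88, 3.28, 3.11 and 2.67, and its groups overlapped. Iars2 stood at 5.42, 5.76, 5.27, 5.57 and 5.50 against 5.78, 5.87, 5.87, 5.45 and 6.02, also with overlap. The rise of Iars2 was lost in 8 of 10 fits that each left out one library, and that of Rars2 in 4 of 10. With libraries at the same median, Rars2 and Iars2 were -0.026 and -0.19 and did not pass, while Nars2 was lower by that scale too (-0.85).

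The histidine pair lies side by side in the genome, and on the deposited scale Hars passed and Hars2 did not. Hars stood at 4.78, 4.81, 4.85, 4.68 and 4.90 in WT PBS and at 5.23, 5.23, 5.41, 5.21 and 5.22 in PiZ, without overlap, and rose by 0.46 ± 0.08 (limma adjusted p = 0.000136). At the same median Hars was -0.033. Hars2 stood at 3.70, 3.54, 3.33, 3.59 and 3.53 against 3.10, 3.28, 3.41, 3.11 and 3.36, a difference of -0.29 that did not pass (adjusted p = 0.097), and passed on the same-median scale at -0.77. Of 13 amino acids with one cytosolic and one mitochondrial gene, the cytosolic fold change was the greater in 12, the exception being methionine (Mars 0.06, Mars2 0.38).

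Related genes in the same libraries were as follows. Of 19 integrated stress response genes 14 rose and 0 fell (10 and 2 on the same-median scale), led by Slc7a11, Asns and Psat1 at 6.40, 4.99 and 4.52. Of 12 ER chaperones 11 rose (8 on the same-median scale), with a median of 1.22, led by Sdf2l1, Creld2 and Pdia6 at 1.97, 1.95 and 1.30. All 12 interferon genes rose (11 on the same-median scale), led by Oas1a at 4.04. Of 15 mitochondrial translation factors and ribosomal proteins 1 rose and 1 fell (median -0.01), and on the same-median scale 0 rose and 10 fell (median -0.50). Of 20 cytosolic translation factors 13 rose (median 0.39), and on the same-median scale 0 rose and 6 fell. Of 11 tested partners of the synthetases 2 rose, Qrsl1 and Aimp1, a scaffold of the multisynthetase complex, at 0.65 and 0.53, and with libraries at the same median 0 rose and 3 fell (median -0.22). Cell type markers moved with the genotype as well: all 8 macrophage markers and all 8 stellate cell markers rose (8 and 7 on the same-median scale). So did 5 of 6 endothelial and 4 of 5 cholangiocyte markers (1 and 3 on the same-median scale). Of 10 hepatocyte markers 0 rose and 3 fell, and 8 fell on the same-median scale. The 8 macrophage markers summed to 192 to 241 CPM in WT PBS and 603 to 912 in PiZ, and the 8 stellate markers to 139 to 179 and 607 to 908. The 10 pancreatic acinar markers summed to 16.1 to 23.9 CPM in WT PBS and 21.4 to 110 CPM in PiZ. Their part in the rise of the synthetases was not tested, and in whole liver more cells of a type and more RNA per cell cannot be told apart.

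**Figure D1:**
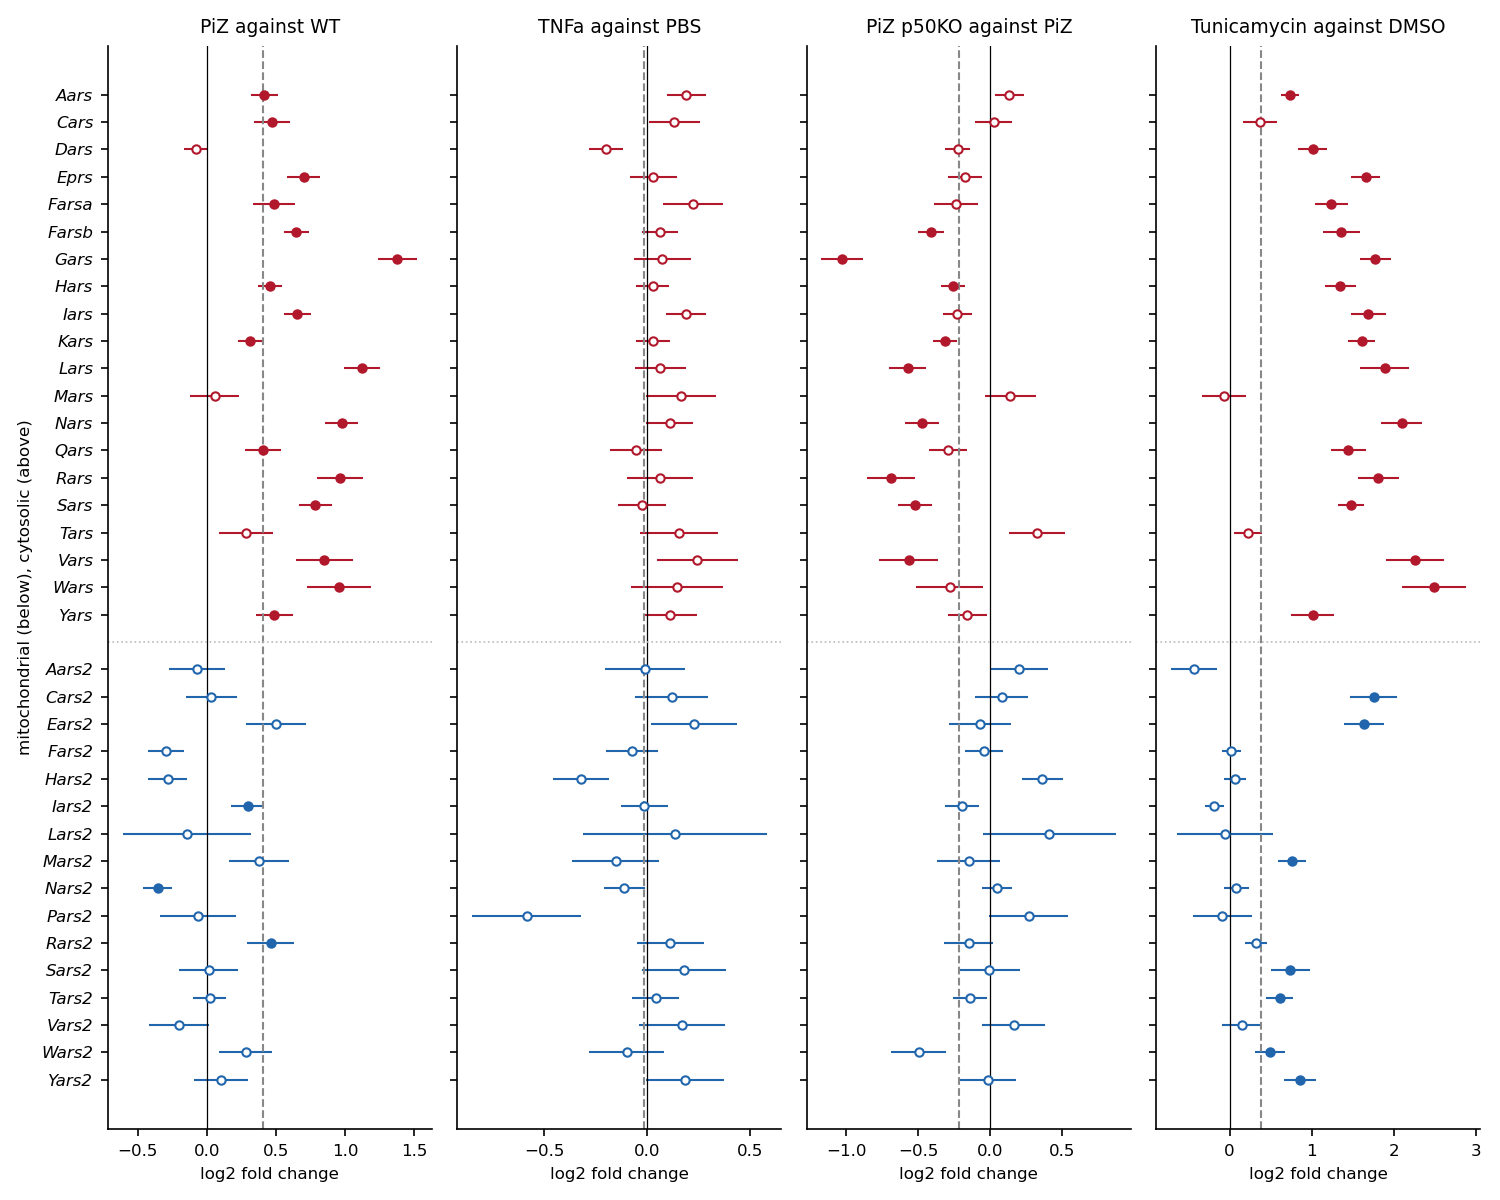
Log2 fold change (x axis) with its standard error for each synthetase gene in the 4 comparisons. Cytosolic members are red and above the dotted line, mitochondrial members are blue and below it, filled points passed limma at adjusted p under 0.05, and the dashed line is the median of all genes tested. In PiZ and after tunicamycin 17 of 20 cytosolic points are filled to the right of 0, and after TNFa none is filled.

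On the deposited scale, PiZ p50KO livers had lower levels of several cytosolic synthetases than PiZ livers. Both comparisons use the same PiZ libraries, so the fold changes of PiZ against WT and of PiZ p50KO against PiZ are not independent. Of 20 cytosolic members 9 fell and 0 rose, with a median of -0.27, and 0 of 16 mitochondrial members passed (median -0.01, 1 higher and 1 lower at an unadjusted p under 0.05). Of all genes tested 3.36% were called higher and 21.6% lower, with a median of -0.22. On the same-median scale, where that median was 0.04, 2 cytosolic members were higher and 1 lower and 2 mitochondrial members were higher and 0 lower, against 9.84% and 9.11% of all genes.

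The knocked-out gene itself did not separate all libraries from PiZ. Nfkb1 stood at 5.58, 5.45, 5.00, 4.62 and 5.12 log2 CPM in PiZ and at 4.51, 4.86, 3.31, 3.74 and 3.37 in PiZ p50KO libraries 1 to 5, so libraries 1 and 2 lay near the lowest PiZ value. The difference was -1.20 ± 0.34 (limma adjusted p = 0.0145). Which part of Nfkb1 was deleted is not given in the sources used here, so this is a weak check of the labels, and the libraries are named by their labels.

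Gars fell by 1.03 ± 0.14 (SE, n = 5 and 5, limma adjusted p = 5.22e-05) and was the member called lower on both scales (-0.77 on the same-median scale). It stood at 5.21, 5.38, 5.60, 6.14 and 5.94 in PiZ p50KO libraries 1 to 5, all below the lowest PiZ value of 6.40, and libraries 1 and 2 lay just below and inside the WT PBS range of 5.23 to 5.40. Asns, a target of ATF4, stood at -1.09 and -1.28 in those libraries, at 3.45, 4.00 and 3.40 in libraries 3 to 5, at 4.41 to 5.21 in PiZ and at -1.79 to 1.42 in WT PBS. Without libraries 1 and 2, Gars differed by -0.79 (adjusted p = 0.000635), and 3 cytosolic members fell: Gars, Farsb and Lars.

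Rars stood at 4.83, 4.71, 5.58, 5.26 and 5.03 in PiZ p50KO against 5.53 to 6.05 in PiZ and fell by 0.69 ± 0.17 (limma adjusted p = 0.00499). Lars stood at 4.49, 4.64, 4.40, 4.96 and 4.84 against 4.95 to 5.46 and fell by 0.57 ± 0.13 (limma adjusted p = 0.00304). Vars, the valine enzyme, stood at 5.24, 5.62, 4.71, 5.80 and 5.64 against 5.32 to 6.36. It fell by 0.56 ± 0.21 (limma adjusted p = 0.0486), and this call was lost in 7 of 10 fits that left out one library. Sars, the serine enzyme, stood at 5.38, 5.67, 5.78, 6.06 and 5.99 against 6.05 to 6.46 and fell by 0.52 ± 0.12 (limma adjusted p = 0.00362). The groups overlapped for these 4 genes, by a single PiZ p50KO library for Rars, Lars and Sars. The other members that fell were Nars, Farsb, Kars and Hars, at -0.47, -0.41, -0.31 and -0.26. At the same median the changes of Rars, Lars, Vars and Sars were -0.43, -0.31, -0.31 and -0.26 and did not pass.

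Aars and Mars went the other way on the same-median scale, where they were called higher at 0.39 and 0.40, against 0.13 and 0.14 on the deposited scale. Tars had the greatest positive cytosolic change on the deposited scale, 0.33, and did not pass there. Its groups did not overlap, at 7.28 to 7.54 in PiZ p50KO against 6.83 to 7.25 in PiZ. Wars stood at 4.11, 4.56, 3.53, 4.46 and 4.43 in PiZ p50KO and overlapped PiZ (-0.28, adjusted p = 0.408). Hars fell by 0.26 ± 0.08 (adjusted p = 0.0285), and this call was lost in 4 of 10 fits without one library and the value was 0.00088 on the same-median scale. Hars2 was higher by 0.36 without passing (adjusted p = 0.0674), at 3.79, 4.05, 3.50, 3.39 and 3.34, and passed on the same-median scale at 0.62. The mitochondrial member that differed most was Wars2, at 2.31, 2.40, 1.54, 1.43 and 1.62 against 2.10 to 2.51 in PiZ, a difference of -0.50 that did not pass (adjusted p = 0.0626). Without libraries 1 and 2 it was -0.83 and passed (adjusted p = 0.00404).

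Among related genes, 11 of 19 integrated stress response genes fell and 0 rose (median -1.25), and at the same median 8 fell and 1 rose. Of 12 ER chaperones 3 fell, a share near that of all genes, and 0 at the same median. Of 12 interferon genes 4 fell, and 1 at the same median. Among the synthetase partners Aimp1 fell by 0.45. The macrophage markers fell as well, 8 of 8, with sums of 299 to 530 CPM in PiZ p50KO, and 7 of 8 stellate markers fell, with sums of 203 to 394. The pancreatic acinar markers summed to 19.6 to 1321 CPM. Their part in the fall of the synthetases was not tested.

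TNFa for 2 hours left no synthetase past the threshold. Of 20 cytosolic and 16 mitochondrial members 0 were called in either direction by limma on the deposited scale, on the same-median scale or with WT PBS 2 in the fit. At an unadjusted p under 0.05, 0 cytosolic members were higher and 1 lower, and 0 mitochondrial members were higher and 2 lower. Of all genes 7.63% were called higher and 4.05% lower, and 7.42% and 6.18% on the same-median scale. With WT PBS 2 in the fit, 294 of 13468 genes were called higher and 253 lower. The cytosolic fold changes ran from -0.20 (Dars) to 0.24 (Vars) with SE of 0.08 to 0.22, and the mitochondrial ones from -0.59 (Pars2) to 0.23 (Ears2) with SE of 0.10 to 0.44.

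Vars stood at 5.10 to 5.75 with a median of 5.31 after TNFa, against 4.71 to 5.38 in WT PBS, and the groups overlapped. Pars2, the mitochondrial proline enzyme, stood at -0.02 to 0.69 with a median of 0.17 after TNFa, against 0.21 to 1.14 (difference -0.59 ± 0.26, adjusted p = 0.186). Wars stood at 2.91 to 4.16, median 3.82, and overlapped WT PBS (0.14 ± 0.22, adjusted p = 0.807). In the same comparison 4 of 12 interferon genes rose, led by Irf1 at 3.65 ± 0.40, and their relation to Wars was not tested. Hars differed by 0.03 and Hars2 by -0.32 (adjusted p = 0.911 and 0.15). Aars was the member whose groups did not overlap, at 7.65 to 7.91 after TNFa and 7.51 to 7.64 in WT PBS, and it did not pass (0.19 ± 0.09, adjusted p = 0.245). The library labelled WT TNFa 4 had Nfkb1 at 4.77, below its group (6.57 to 6.95), and without it 0 members passed. Pancreatic acinar markers summed to 17.6 to 4211 CPM after TNFa, with the highest value in library 5.

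Tunicamycin for 24 hours raised most cytosolic synthetases. The log2 fold change was above 1 in 16 of 20 cytosolic members on the deposited scale and in 10 of 20 on the same-median scale. Among mitochondrial members it was above 1 in 2 of 16 on both scales. The share of all genes above 1 is not given here. Of 20 cytosolic members 17 rose and 0 fell, with a median of 1.46, and 7 of 16 mitochondrial members rose and 0 fell, with a median of 0.24. Of all genes 45.3% were called higher and 13.5% lower, with a median of 0.38. On the same-median scale, where that median was -0.07, 17 cytosolic members were higher and 1 lower (median 1.01), and 3 mitochondrial members were higher and 5 lower (median -0.21), against 24.1% and 29.2% of all genes. All 17 cytosolic members that rose had groups that did not overlap, as did 6 mitochondrial members, all higher after tunicamycin. The share of all genes without overlap is not given here, so these counts are not set against a background.

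Wars rose most, by 2.49 ± 0.39 (SE, n = 6 and 6, limma adjusted p = 0.000170), a 5.62-fold rise. It stood at 4.22, 3.11, 4.60, 4.44, 4.62 and 4.17 in DMSO libraries 1 to 6 and at 5.86, 7.27, 7.80, 7.29, 5.39 and 6.48 in the tunicamycin libraries. The latter are given here in the order of libraries 1, 5 and 6 and of 3 libraries whose labels do not give their number, called column 1643, column 1647 and column 1667. Of 12 interferon genes 1 rose and 7 fell in the same comparison, and their relation to the rise of Wars was not tested. Wars lies at chr12:108860030-108894174 on the minus strand.

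Vars stood at 5.79, 4.50, 5.71, 5.70, 5.67 and 5.57 in DMSO and at 6.78, 8.31, 8.79, 8.38, 6.90 and 7.36 after tunicamycin, a rise of 2.26 ± 0.35 (limma adjusted p = 0.000169). Nars stood at 6.75, 6.92, 6.72, 6.68, 6.75 and 6.55 in DMSO and at 8.43, 9.34, 9.49, 9.35, 7.88 and 8.47 after tunicamycin, a rise of 2.10 ± 0.25 (limma adjusted p = 2.41e-05). In these genes tunicamycin libraries 5, 6 and column 1643 were the highest, and DMSO library 2 was lowest for Vars but highest for Nars. Lars stood at 5.16, 4.60, 4.98, 5.22, 5.33 and 5.04 against 6.39, 7.43, 7.78, 7.68, 5.87 and 6.53, and rose by 1.89 ± 0.30 (limma adjusted p = 0.000192). Rars stood at 5.16, 5.28, 5.05, 5.10, 5.23 and 4.98 against 6.85, 7.30, 7.76, 7.34, 5.97 and 6.48, and rose by 1.81 ± 0.25 (limma adjusted p = 6.25e-05). Gars, the leading gene of the PiZ comparison, rose by 1.77 ± 0.19 here.

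Cars, Mars and Tars did not pass (0.37, -0.07 and 0.22). Mars stood at 6.41, 4.74, 6.32, 6.35, 6.16 and 6.03 in DMSO and at 5.47, 6.07, 6.42, 6.06, 5.74 and 5.84 after tunicamycin, and was called lower on the same-median scale (-0.52, adjusted p = 0.0359). Its overlapping neighbour Ddit3 rose in the same libraries, from 2.04 to 2.85 in DMSO to 5.22 to 9.99 after tunicamycin. Tars held the promoter letters shown above and did not pass in any of the 4 comparisons, with fold changes of 0.28, 0.15, 0.33 and 0.22. By groups, 7 of 8 members of the multisynthetase complex rose (median 1.63) and 10 of 12 outside it (median 1.36), and 7 of 9 class I and 9 of 10 class II enzymes rose.

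The mitochondrial members that rose were Cars2, Ears2, Yars2, Mars2, Sars2, Tars2 and Wars2. Cars2, the mitochondrial cysteine enzyme, stood at 3.83, 2.87, 4.23, 3.94, 3.90 and 3.93 in DMSO and at 4.87, 5.99, 6.21, 6.12, 4.84 and 5.23 after tunicamycin, a rise of 1.76 ± 0.29 (limma adjusted p = 0.000237). Ears2, the mitochondrial glutamate enzyme, stood at 3.38, 2.50, 3.66, 3.63, 3.44 and 3.27 against 4.36, 5.21, 5.55, 5.35, 4.56 and 4.67, a rise of 1.64 ± 0.24 (limma adjusted p = 0.000117). Neither gene's groups overlapped, and both rises lay above the median of the cytosolic class. Yars2, the mitochondrial tyrosine enzyme, stood at 3.87, 2.82, 3.87, 3.84, 3.72 and 3.53 against 3.95, 4.58, 4.67, 4.73, 4.44 and 4.41, and rose by 0.86 ± 0.20 (limma adjusted p = 0.00229). These 3 were the mitochondrial members called higher on the same-median scale as well, at 1.31, 1.19 and 0.41. The call of Wars2 (0.49, adjusted p = 0.0290) was lost in 4 of 12 fits without one library. On the same-median scale Aars2, Fars2, Hars2, Iars2 and Nars2 were called lower, at -0.88, -0.43, -0.38, -0.64 and -0.37.

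Of the histidine neighbours, Hars passed after tunicamycin and Hars2 did not. Hars stood at 5.26, 5.21, 5.15, 5.10, 5.23 and 5.05 in DMSO and at 6.11, 6.74, 7.08, 6.95, 5.89 and 6.32 after tunicamycin, and rose by 1.35 ± 0.19 (limma adjusted p = 8.12e-05). Hars2 stood at 4.51, 3.87, 4.48, 4.37, 4.25 and 4.35 against 4.22, 4.53, 4.37, 4.43, 4.42 and 4.24, a difference of 0.07 ± 0.13 that did not pass. Cysteine was the reverse case, since Cars2 rose by 1.76 and Cars by 0.37 without passing. Of the 13 amino acids with a pair of genes, the cytosolic fold change was the greater in 10, and the exceptions were cysteine, methionine and threonine.

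Partners and translation genes moved as follows after tunicamycin. Of 11 tested synthetase partners 7 rose and 1 fell, led by Aimp1, Aimp2 and Eef1e1, all held in the multisynthetase complex, at 2.01, 1.87 and 1.57. All 20 cytosolic translation factors rose (median 1.15; 18 on the same-median scale), whereas 7 of 15 mitochondrial translation genes rose and 1 fell (median 0.35; 1 and 3 on the same-median scale). Of 18 tested integrated stress response genes 17 rose, led by Atf3 at 9.50, and all 12 ER chaperones rose (median 3.30). Pancreatic acinar markers were uneven between libraries: 6 of 7 tested were called higher, and the 10 markers summed to 10.4 to 27.9 CPM in DMSO and 10.7 to 1287 CPM after tunicamycin. The 10 hepatocyte markers summed to 91382 to 121538 CPM in DMSO (median 105704) and 30396 to 76933 CPM after tunicamycin (median 50861). Of 8 macrophage markers 4 fell (7 at the same median), of 6 endothelial markers 2 fell (6 at the same median), and all 3 tested erythroid markers fell. The part of these markers in the rise of the synthetases was not tested.

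**Figure D2:**
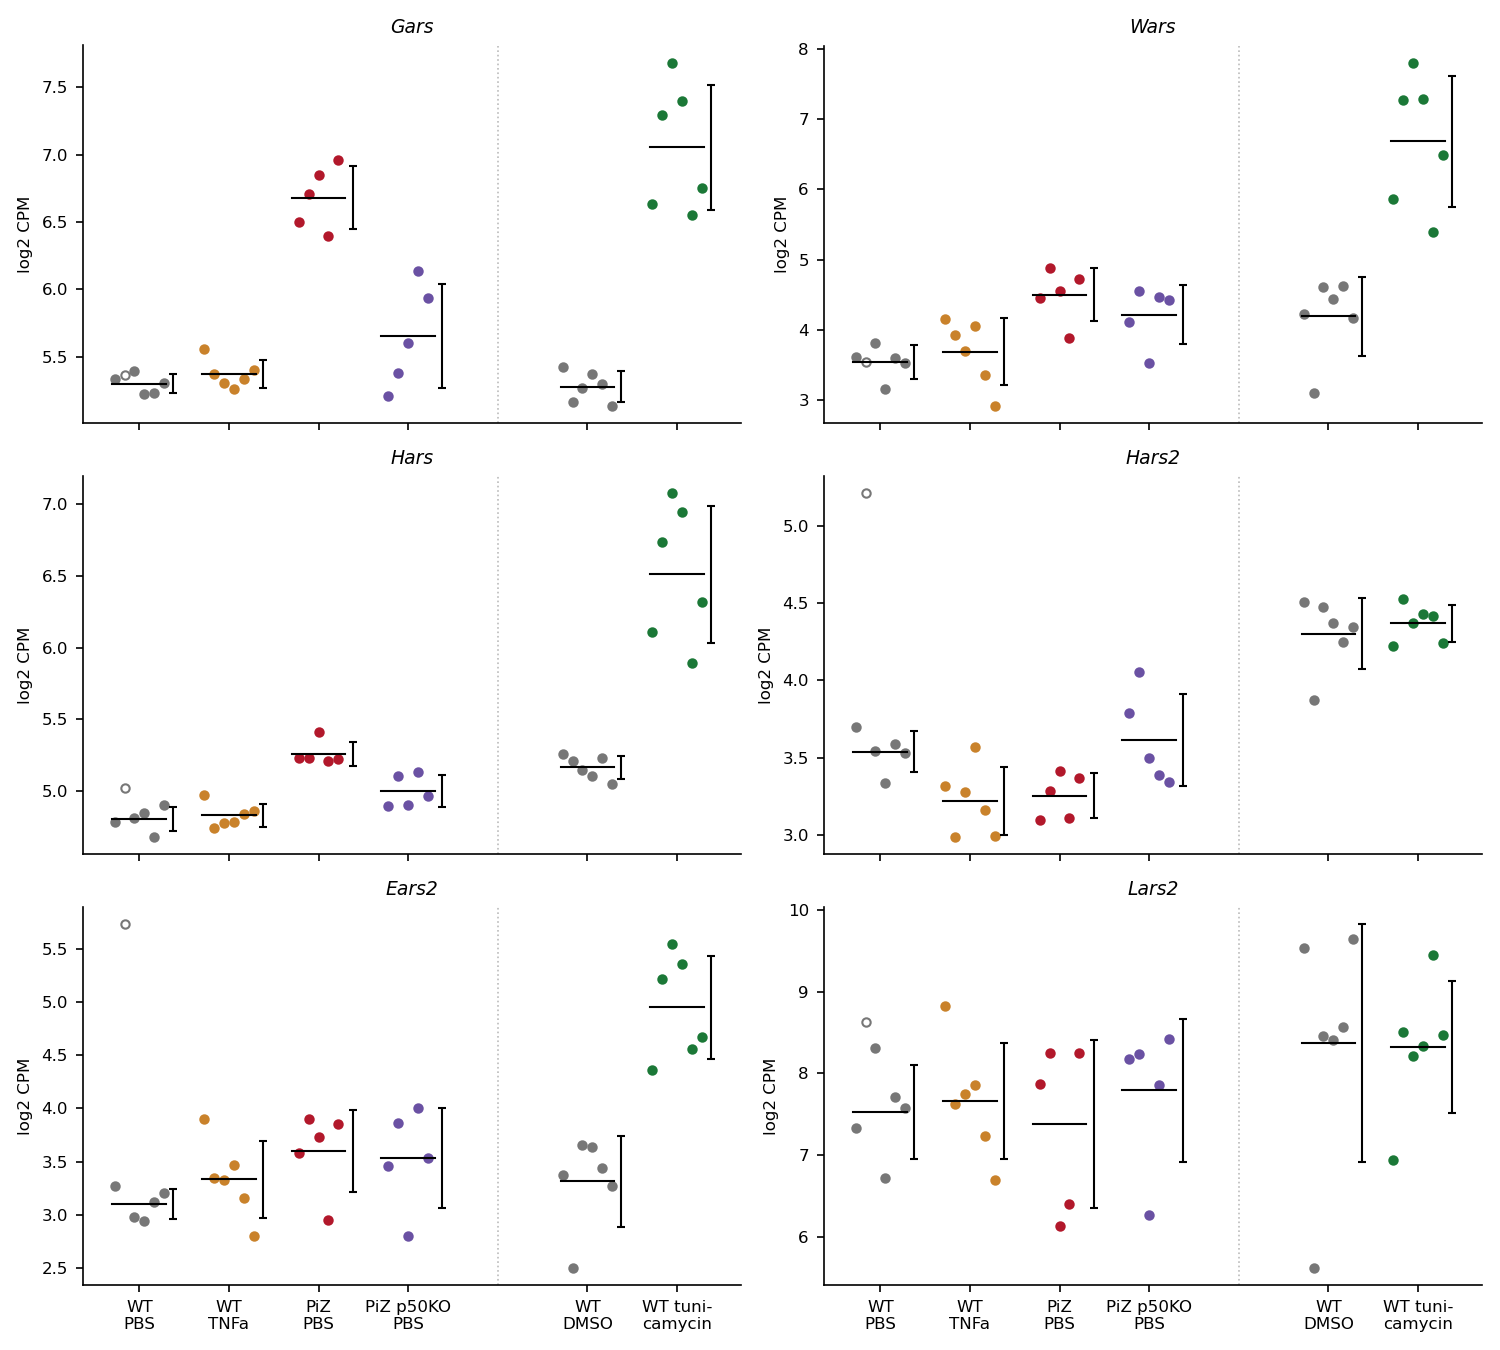
Log2 CPM of Gars, Wars, Hars, Hars2, Ears2 and Lars2 in every library, by group. Each point is a library, the line is the group mean and the bar its SD, the open point is WT PBS 2 (left out of mean and SD), and the dotted line parts the 2 tables. Gars and Hars rise in PiZ and after tunicamycin, Hars2 does not, Ears2 rises after tunicamycin, and Lars2 spreads over 4.02 log2 units in DMSO.

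DMSO library 2 stood apart in the second table. Its mitochondrial mean was 3.28 against 4.17 to 4.34 in the other DMSO libraries, and its cytosolic mean was 5.36 against 5.60 to 5.79. Lars2 stood at 5.62 there against 8.41 to 9.64. Without this library, 2 mitochondrial members (Aars2 and Iars2) were called lower after tunicamycin, against 0 with it. With the same-median scale as well, a setting chosen after the data were seen, 4 were higher and 8 lower. The shares of all genes called without DMSO library 2 are not given here, so these counts are not set against a background. With all libraries at the same median, 24.1% of all genes were called higher and 29.2% lower.

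The gap between the classes does not depend on the scale of a library. Only a factor shared by all genes of a library cancels in it. The mean of the cytosolic members minus the mean of the mitochondrial ones was 1.61 ± 0.16 (SD, n = 5) in WT PBS, 1.71 ± 0.12 (n = 6) after TNFa, 2.19 ± 0.12 (n = 5) in PiZ and 1.88 ± 0.28 (n = 5) in PiZ p50KO. All PiZ libraries (2.05 to 2.37) lay above all WT PBS (1.36 to 1.82) and TNFa libraries (1.56 to 1.87). The libraries labelled PiZ p50KO 1 and 2 lay at 1.60 and 1.62, within the WT range, and libraries 3 to 5 at 2.28, 1.98 and 1.93. The gap was 1.58 ± 0.25 (n = 6) with DMSO and 2.53 ± 0.37 (n = 6) after tunicamycin, where column 1647, at 1.87, lay below DMSO library 2 at 2.07. In the first table the gap widened from WT to PiZ through the cytosolic side: the cytosolic mean went from 5.24 ± 0.04 to 5.86 ± 0.14, and the mitochondrial mean from 3.63 ± 0.18 to 3.67 ± 0.23 on the deposited scale. With libraries at the same median the median changes were 0.08 and -0.47, so there the gap lay mostly on the mitochondrial side. Within groups the widest gap lay in the library highest in the mitochondrial ribosomal RNA mt-Rnr2, except after tunicamycin. These were WT PBS 4 (mt-Rnr2 11.79 log2 CPM), WT TNFa 6 (11.93), PiZ 4 (11.69), PiZ p50KO 3 (11.76) and DMSO 2 (11.19). After tunicamycin column 1647 was highest in mt-Rnr2 (9.99) and had the narrowest gap. Mean mt-Rnr2 was 11.43 in WT PBS and 10.89 in PiZ. The part of mt-Rnr2 in the gap was not tested. As a score over the members, the gap was not tested.

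**Figure D3:**
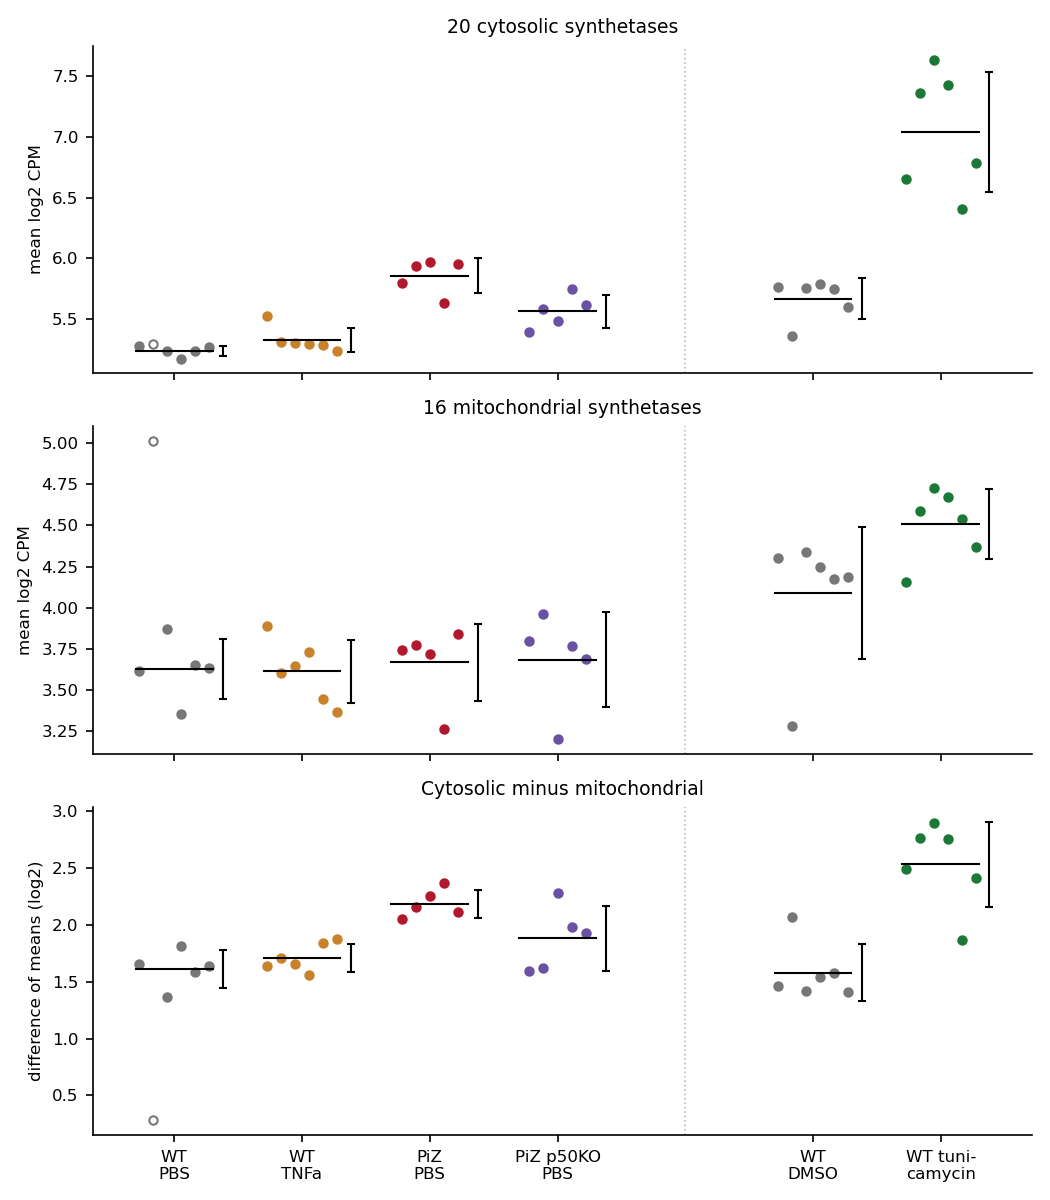
Mean log2 CPM of the 20 cytosolic members (top), of the 16 mitochondrial members (middle) and their difference (bottom) in every library, by group. Each point is a library, with group mean and SD. The open point is WT PBS 2, at 0.28 in the bottom panel, and the dotted line parts the 2 tables. PiZ libraries at 2.05 to 2.37 sit above every WT PBS and TNFa library.

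Within the tunicamycin group, the cytosolic mean followed the summed level of 12 ER chaperones in order. From lowest to highest, both ranked the libraries as column 1647, library 1, column 1667, library 5, column 1643 and library 6. The cytosolic means were 6.41, 6.65, 6.79, 7.36, 7.43 and 7.63 log2 CPM, and the chaperone sums 27862, 33280, 36971, 50524, 56406 and 62057 CPM. The 6 points share library size and composition, and the order is a description. In PiZ, library 4 had the lowest cytosolic mean (5.63) and chaperone sum (6766 CPM), and library 3 the highest of both (5.97 and 8350 CPM). The library labelled WT TNFa 1 had the highest cytosolic mean of its group (5.52) and the highest chaperone sum (6173 CPM).

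**Figure D4:**
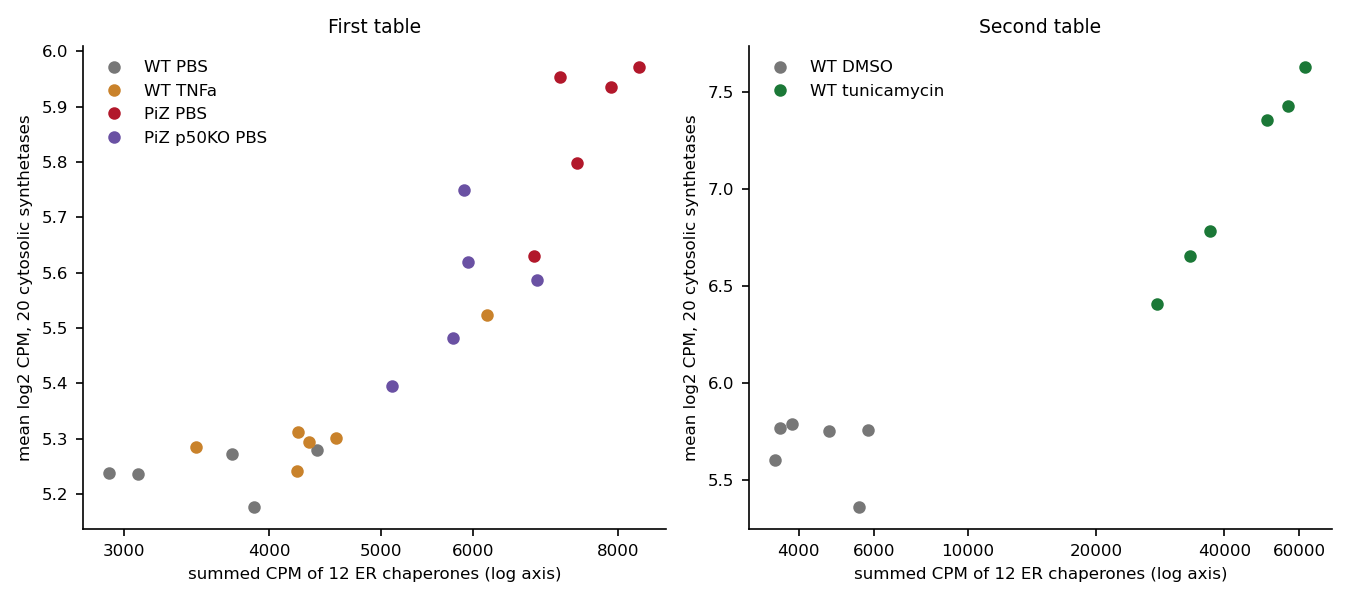
Mean log2 CPM of the 20 cytosolic members (y axis) against the summed CPM of 12 ER chaperones (x axis, log axis) in each library except WT PBS 2, by table. The tunicamycin libraries run from 6.41 at 27862 CPM to 7.63 at 62057 CPM.

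The comparisons PiZ against WT and tunicamycin against DMSO share no library. Of the 17 cytosolic members called higher in each, 16 were the same (94.1% of each list), with Cars called in PiZ and Dars after tunicamycin. With 17 of 20 called in each, at least 14 had to be shared. Of all 12547 genes tested in both tables, 2917 were called higher in both, 52.6% of those higher in PiZ and 51.2% of those higher after tunicamycin. At the same median all 5 called in PiZ were among the 17 called after tunicamycin (29.4% of those), while 425 of all genes were called higher in both, 22.7% and 14.1% of the respective lists. None of the mitochondrial members called higher in PiZ (2) was among the 7 called higher after tunicamycin. With so few called, an empty overlap says little. The PiZ calls of Iars2 and Rars2 were lost in 8 and 4 of 10 fits without one library. Ears2, one of the 7, had the greatest mitochondrial fold change in PiZ (0.50) and did not pass there. Its means were 3.10 in WT PBS and 3.60 in PiZ.

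Members also differed in how much they varied within a group. Hars was the steadiest, with a median SD over the 6 groups of 0.08, followed by Dars (0.11) and Kars (0.12). Lars2, the mitochondrial leucine enzyme, varied most, with a median SD of 0.84. In WT PBS libraries 1 and 3 to 6 Lars2 stood at 7.32, 8.31, 6.72, 7.71 and 7.57, and in PiZ at 7.87, 8.25, 6.13, 6.40 and 8.24. The mitochondrial ribosomal RNA mt-Rnr2 stood at 11.62, 11.26, 11.79, 11.19 and 11.30 in the same WT libraries. Lars2 was lowest in the WT library in which mt-Rnr2 was highest, as also in DMSO library 2 (5.62, with mt-Rnr2 at 11.19 against 10.03 to 10.31 in the others). PiZ did not follow this order: Lars2 was lowest in library 3, where mt-Rnr2 was 10.59, and mt-Rnr2 was highest in library 4 (11.69), where Lars2 was 6.40. Lars2 did not pass in any of the 4 comparisons, with SE of 0.44 to 0.59.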

How the data were processed

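RNA-seq libraries of mouse liver were used in 2 tables of log2 CPM (read counts scaled to library size, on the log2 scale) deposited by the authors, with 22 and 12 libraries, and each table was analysed alone. Per the submitters' processing notes, bcl2fastq, DRAGEN, STAR, Subread, featureCounts and edgeR were used with the GRCm38 build. Their order and settings are not given in the sources used here. All columns of per-sample values could be mapped to a group. Of each table, 287 repeated gene rows with the same values were dropped. Low values were whole multiples of 1 read within a tolerance of 0.1, which gave the read totals. Genes above 1 CPM in at least 5 libraries (13285 genes, first table) or 6 libraries (13388 genes, second table) were tested with limma 3.58.1 in R 4.3.3 (moderated linear models with an intensity trend, Benjamini-Hochberg adjustment over all genes tested, threshold 0.05, two-sided). All groups of a table shared 1 fit, without WT PBS 2 in the first. The method was tested on simulated data. The same-median scale shifted every library to one median of the tested genes.

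Values by library are given for the called members with the greatest absolute fold changes of a comparison (5 cytosolic, 3 mitochondrial), or the greatest of a class where none was called, and for Wars, Hars and Hars2 throughout. Of related lists, up to 3 called genes are named. Mars, Lars2, Aars after TNFa, Asns and Ddit3 were added after their values were seen. The members, gene lists and tests were chosen with earlier results of these data known. Alternatives covered scaling, filters, added counts, moderation, weights, blocks and left-out libraries.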

Additional observations from a re-analysis of the deposited data

Results flagged for a closer look

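Of 120 sets of values examined, each a named member or a class mean or gap in a group, 12 held a library far from its group. For separate sets chance gives about 1 in 20. These sets reuse the same libraries and are not independent, so that rate is no fair standard for their number. The library WT DMSO 2 gave 7 of these. It was the lowest DMSO library for Cars2 (2.87 log2 CPM), Ears2 (2.50), Vars (4.50), Wars (3.11) and Yars2 (2.82) and for the mean of the mitochondrial members (3.28). It was the highest for the cytosolic mean minus the mitochondrial mean (2.07, others 1.41 to 1.57). The library PiZ PBS 4 was the lowest of its group for Yars2 (2.74) and for the mitochondrial mean (3.26, others 3.72 to 3.84). Hars was highest in PiZ PBS 3 (5.41), Pars2 was lowest in WT PBS 4 (0.21), and the cytosolic mean was highest in WT TNFa 1 (5.52). WT PBS 2, which was left out of the main comparisons, had a mitochondrial mean of 5.01 log2 CPM, where the other WT PBS libraries had 3.36 to 3.87.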

How the results depend on the processing

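For PiZ against WT, 6886 genes were called, and 2336 with WT PBS 2 in the fit, which left 0 mitochondrial members higher and 0 lower and a class gap of 0.80. With libraries at the same median 5 cytosolic members were higher and 2 lower, and 0 mitochondrial members higher and 8 lower. Among members past the threshold on either scale, Aars, Cars, Farsa, Hars, Kars, Mars, Qars and Yars turned to -0.075, -0.021, -0.0055, -0.033, -0.18, -0.43, -0.084 and -0.0026, and Cars2, Iars2, Rars2, Sars2 and Tars2 to -0.46, -0.19, -0.026, -0.48 and -0.47; Tars, Mars2, Wars2 and Yars2 changed sign without passing on either. Quantile normalization gave 11 cytosolic members higher and 1 lower, 0 mitochondrial higher and 10 lower, and a gap of 0.75. It turned Kars, Cars2, Iars2, Rars2, Sars2, Tars2 and Yars2 to -0.0085, -0.51, -0.047, -0.14, -0.54, -0.37 and -0.42. Without a filter 0 mitochondrial members were higher. Leaving out each library gave 5947 to 7311 genes, 0 to 3 mitochondrial members higher, 1 to 2 lower and gaps of 0.51 to 0.63. For TNFa, 1551 genes were called, 547 with WT PBS 2 (gap 0.32), and 1165 to 2095 without each library (gap 0.04 to 0.15). For PiZ p50KO against PiZ, 3313 genes were called, 468 with WT PBS 2 (3 cytosolic members lower), 2180 from only the groups compared, and 1479 without the libraries labelled 1 and 2 (3 cytosolic and 1 mitochondrial lower). The same median gave 2 cytosolic members higher and 1 lower and 2 mitochondrial higher, with Hars at 0.00088, and quantile normalization 4 cytosolic lower and 3 mitochondrial higher. Leaving out each library gave 2197 to 3770 genes, 7 to 11 cytosolic members lower, and 0 to 1 mitochondrial higher and 0 to 1 lower, with gap changes of -0.41 to -0.24. For tunicamycin, 7869 genes were called, and 6799 to 8703 without each library, with 17 to 18 cytosolic members higher, 6 to 8 mitochondrial higher, 0 to 2 lower, and gaps of 0.88 to 1.09. The same median gave 1 cytosolic member lower and 3 mitochondrial higher and 5 lower, with Fars2, Hars2 and Nars2 at -0.43, -0.38 and -0.37. Quantile normalization gave 1 cytosolic lower and 4 mitochondrial higher and 5 lower, with these genes at -0.45, -0.40 and -0.36. Array weights gave 2 mitochondrial members lower. Without WT DMSO 2 and with the same median, chosen after seeing the data, 1 cytosolic member was lower, 4 mitochondrial higher and 8 lower. Fars2, Hars2, Nars2 and Vars2 were then at -0.43, -0.40, -0.34 and -0.47, and the share of all genes in that fit is not given here. A replicate block gave 1 mitochondrial member higher for PiZ, and 3 higher and 2 lower for tunicamycin, where it used libraries 1, 5 and 6 only. Same-numbered libraries did not correlate above 0.1 throughout any comparison, so the numbers were not taken to pair mice. The highest r was 0.56, for replicate 4 in PiZ against WT, where the other replicates gave -0.18 to 0.20. WT PBS 4 and PiZ PBS 4 both had the lowest mitochondrial mean (3.36 and 3.26) and the highest mt-Rnr2 (11.79 and 11.69) of their groups. The cause of these changes was not tested. Depth limits Pars2 (32 reads at the fewest) and Mars2 (50) most.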
